A study of Mus musculus with 8 samples.

Results

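The goblet cell and mucus genes described here were Muc2, Tff3, Fcgbp, Clca1, Zg16, Agr2, Spdef, Spink4, Retnlb and Atoh1, matched by mouse symbol to the Ensembl identifiers of the deposited counts. They are 10 of the 56980 genes counted. RNA sequencing was performed on jejunal mucosal scrapings from male mice, 4 FFA2 fl/fl mice (floxed controls, which carry the floxed Ffar2 alleles without Cre) and 4 Adipoq-F2-KO mice, in which an Adiponectin-Cre transgene removes the short-chain fatty acid receptor FFA2 in adipocytes. All 8 mice were 12 weeks old when a Western diet with 10% fructooligosaccharides was started, and all were kept on it for 2 weeks at thermoneutrality. Cre acts in adipocytes, so Ffar2 counts in the mucosa (mean normalized counts of 7.36 ± 2.31 SD without Cre and 8.84 ± 2.85 SD with it) do not check the deletion. The comparison asks whether loss of FFA2 in fat tissue goes with a different goblet cell programme in the small intestine.

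Goblet cells are the mucus-secreting cells of the intestinal epithelium. Muc2 is the gel-forming mucin of intestinal mucus, and Fcgbp, Clca1, Zg16 and Tff3 are secreted with it. Agr2 is a disulfide isomerase of the endoplasmic reticulum needed for mucin folding, Atoh1 commits progenitors to the secretory fate, and Spdef drives goblet cell maturation downstream of it. Spink4 is a goblet cell Kazal-type protein, and Retnlb is a goblet cell product best known from the colon and from worm infection. Scrapings are a mixture of cells, so a change in the number of goblet cells and a change in RNA per goblet cell cannot be told apart.

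The libraries held between 6007654 and 21712776 counts. Of these, 3 held under 10000000 (control 3 and Adipoq-F2-KO 3 and 4, 6007654 to 6541595 counts), and the other 5 held 15204995 to 21712776. The tissue label was checked on markers. All 12 absorptive enterocyte markers passed the filter on low counts, and their summed normalized counts ranged from 893661.5 to 1016549.5. None of the 9 stomach and Brunner gland markers passed the filter, and Gkn1 and Gkn2 were at 0 in every library. Of 9 colon markers, 5 did not pass the filter, with Car1 at 0 in every library, while others such as Slc26a3 and Ceacam20 did, and the tested markers of this list summed to 5786.1 to 7246.1 normalized counts. Fabp6, the ileal bile acid binding protein, had 1 to 5 counts in the 5 deeper libraries but 250 in control 3, 70 in Adipoq-F2-KO 3 and 501 in Adipoq-F2-KO 4. Smooth muscle markers also varied between scrapings, and all 11 were highest in control 3. There, the smooth muscle myosin gene Myh11 had 9682.1 normalized counts, against 64.8 to 3540.1 in the other libraries.

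Sequence is shown first for the genes that hold most of the signal. Fcgbp and Muc2 supplied 78.8% to 81.8% of all counts assigned to the members in a library, and their promoters (250 bases before to 50 after the RefSeq gene start, GRCm38.p6) are printed with capitals where the motif CAGCTG or the motif TATAA occurs. The former is an E-box, the class of site that basic helix-loop-helix factors such as Atoh1 recognise, and the latter is the core of the TATA box.
Muc2 promoter, chr7:141690090-141690389, + strand: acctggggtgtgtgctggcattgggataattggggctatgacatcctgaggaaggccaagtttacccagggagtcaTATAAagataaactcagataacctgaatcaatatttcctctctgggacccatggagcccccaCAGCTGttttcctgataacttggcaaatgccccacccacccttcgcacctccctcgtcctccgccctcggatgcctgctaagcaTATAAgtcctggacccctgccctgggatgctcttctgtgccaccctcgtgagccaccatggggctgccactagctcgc
Fcgbp promoter, chr7:28070986-28071285, + strand: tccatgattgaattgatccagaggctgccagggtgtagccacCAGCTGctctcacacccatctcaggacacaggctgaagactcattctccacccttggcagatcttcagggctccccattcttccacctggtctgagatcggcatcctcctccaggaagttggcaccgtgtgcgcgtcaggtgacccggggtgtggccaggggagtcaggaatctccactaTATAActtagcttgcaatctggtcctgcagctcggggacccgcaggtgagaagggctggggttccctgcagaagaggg
Both promoters hold TATAA 28 bases before the gene start. Muc2 holds another TATAA 174 bases before the start and CAGCTG 112 bases before it, and Fcgbp holds CAGCTG 208 bases before it. The promoters of 5 members (Muc2, Fcgbp, Agr2, Spdef and Atoh1) were searched. CAGCTG, which reads the same on both strands, was present in 2 of the 5 and in 16.4% of 32544 mouse promoters of the same length. TATAA on either strand was present in 3 of the 5 (Muc2, Fcgbp and Spdef) and in 24.8% of all promoters, and in Spdef its matches on both strands overlap. These matches are a description of the letters and not of binding.

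Tff3 has a short transcript, of 493 bases, and its place in the order of levels below turns on that length. Its coding sequence is printed from the annotated transcript (GRCm38, chr17:31125306-31129646, - strand), with capitals at the in-frame cysteine codons. Trefoil peptides are held together by disulfide bonds between cysteines.
Tff3 coding sequence: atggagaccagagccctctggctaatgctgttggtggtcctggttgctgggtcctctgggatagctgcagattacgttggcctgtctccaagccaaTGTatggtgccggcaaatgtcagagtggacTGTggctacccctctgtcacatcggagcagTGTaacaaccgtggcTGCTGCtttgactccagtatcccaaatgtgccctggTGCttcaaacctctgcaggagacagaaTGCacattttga
It spans 246 bases, with 81 codons before the stop codon and 7 cysteine codons.

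Of the 10 members, 9 were detected and tested, and none passed the test between genotypes. With DESeq2 and Benjamini-Hochberg adjustment, 0 of the 9 had an adjusted p below 0.05, against 0.0375% of all 15986 tested genes. At an unadjusted p below 0.05 the count was also 0 of 9, against 3.03% of all tested genes, and edgeR's quasi-likelihood test gave 0 by both criteria. The values of the genotypes overlapped for all 9, where 2.12% of tested genes had no overlap. The log2 fold changes (Adipoq-F2-KO over controls) lay between -0.21 and 0.07, with a median of -0.04 against -0.01 over all tested genes. They were below 0 for 7 of the 9, against 51.5% of tested genes. Together the members took 1.21% to 1.39% of all counts in each library, with 1.23% to 1.39% in controls and 1.21% to 1.33% in Adipoq-F2-KO.

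Muc2 (ENSMUSG00000025515, chr7:141690340-141754693) had 46173.8, 43552.6, 54569.0 and 46597.6 normalized counts in controls 1 to 4 and 49181.3, 43576.0, 48281.0 and 48021.5 in Adipoq-F2-KO 1 to 4. Control 3 was the highest library and the controls spanned every Adipoq-F2-KO value. The group means were 47723.2 ± 4758.4 and 47264.9 ± 2509.0 (SD, n = 4 each), a log2 fold change of -0.01 ± 0.10 (SE, DESeq2 adjusted p = 0.9998). The 95% interval of the ratio ran from 0.868 to 1.13.

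Fcgbp (chr7:28071236-28120862), a large mucus protein that associates with Muc2, had 83869.4, 72215.8, 83458.5 and 71136.5 normalized counts in controls and, in the Adipoq-F2-KO mice, 78628.4, 74967.9, 79622.1 and 71170.2. All 4 Adipoq-F2-KO values lay within the range of the controls. The log2 fold change was -0.03 ± 0.09 (DESeq2 adjusted p = 0.9998), with an interval of the ratio from 0.864 to 1.11. The ratio of Fcgbp to Muc2 counts was 1.53 to 1.82 in controls and 1.48 to 1.72 in Adipoq-F2-KO, so the proportion of these 2 transcripts overlapped as well.

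Zg16 (chr7:127050156-127087328), a lectin that binds Gram-positive bacteria and keeps them from the epithelium, had 15399.5, 15218.9, 17239.6 and 13597.5 normalized counts in controls, compared with 15020.0, 13867.3, 15818.7 and 14201.7 in Adipoq-F2-KO. Again the controls spanned all Adipoq-F2-KO libraries (log2 fold change -0.06 ± 0.10, DESeq2 adjusted p = 0.9998, interval of the ratio 0.839 to 1.10). In the 5 deeper libraries its log2 fold change was -0.03. The Zg16 locus overlaps 2 annotated non-coding genes, and the strand setting of the counting is not given in the sources used here. Gm44939, on the opposite strand, had 1 count in all 8 libraries together.

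Clca1 (chr3:145003817-145032776), a secreted metalloprotease that acts on the mucus gel, was the most variable of the abundant members. It had 7578.0, 7936.2, 13444.1 and 9282.2 normalized counts in controls, compared with 11062.7, 8531.7, 10437.0 and 9969.8 in Adipoq-F2-KO. Control 3 stood above every other library, while controls 1 and 2 stood below every Adipoq-F2-KO library. The log2 fold change was 0.07 ± 0.19 (DESeq2 adjusted p = 0.9998, interval of the ratio 0.814 to 1.35). Without control 3 it was 0.27 with an unadjusted p of 0.0273, the only member under 0.05 in any of the 15 alternative fits, but the adjusted p was then 0.505. Over the 15 alternatives the adjusted p of Clca1 ran from 0.505 to 0.99999.

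Tff3 (chr17:31125306-31129646), the trefoil peptide of goblet cells, had 3789.9, 3865.6, 3368.9 and 3572.3 normalized counts in controls, compared with 3399.2, 3767.1, 3301.5 and 2944.1 in Adipoq-F2-KO. The lowest libraries were Adipoq-F2-KO 3 and 4, and the genotypes overlapped. Tff3 had the smallest p of the set (log2 fold change -0.12 ± 0.10, unadjusted p = 0.236, DESeq2 adjusted p = 0.9998, interval of the ratio 0.800 to 1.06). Its lowest values lay in the 3 libraries under 10000000 counts, which are also the 3 with at least 70 counts of Fabp6. These held 2944.1 to 3368.9, below the 3399.2 to 3865.6 of the other 5. Tff3 was the only member of the 9 with no overlap between these 3 and 5 libraries, against 13.9% of all tested genes. In the 5 deeper libraries alone its log2 fold change was -0.07. With 1 library left out it ran from -0.18 (without Adipoq-F2-KO 2, DESeq2 unadjusted p = 0.0664) to -0.07 (without Adipoq-F2-KO 4). With size factors from general epithelial markers it was -0.20 (unadjusted p = 0.211).

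**Figure D1:**
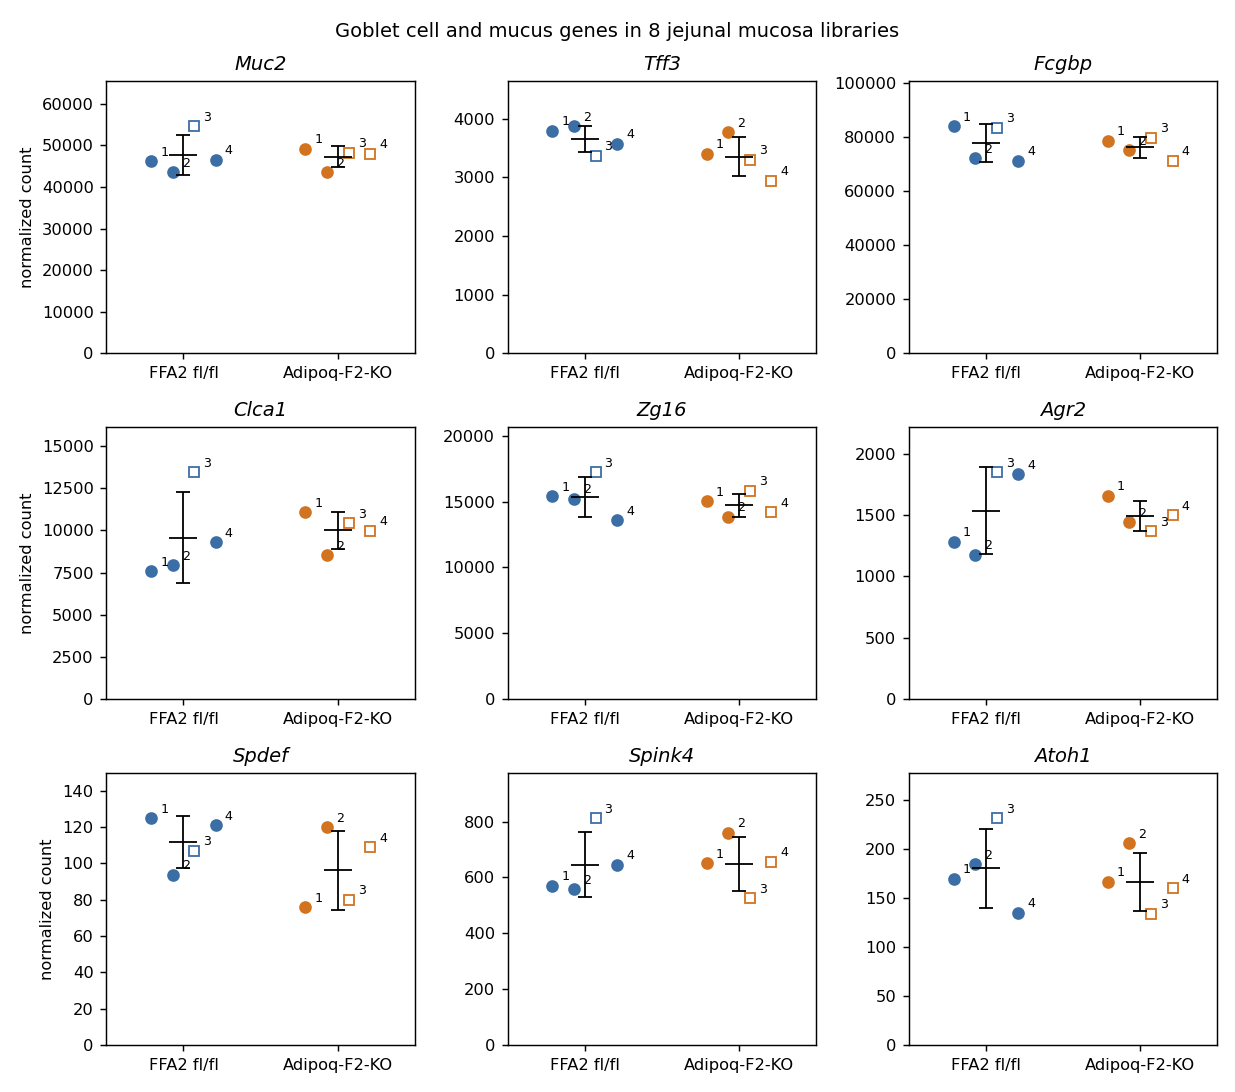
Normalized counts (linear axis from 0) of the 9 detected members in each library, numbered by replicate, with FFA2 fl/fl in blue and Adipoq-F2-KO in orange. Open squares are libraries under 10000000 counts, black bars are the mean ± SD of 4 libraries, and the genotypes overlap in all 9 panels.

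The remaining products were less abundant. Agr2 (chr12:35992907-36004087) had 1282.5, 1177.5, 1848.6 and 1832.6 normalized counts in controls, compared with 1657.7, 1441.5, 1369.4 and 1498.4 in Adipoq-F2-KO. The controls fell into a lower and a higher pair, and the Adipoq-F2-KO values lay between these pairs (log2 fold change -0.04 ± 0.17, DESeq2 adjusted p = 0.9998). Spink4 (chr4:40920052-40931395) had 570, 557, 813 and 645 normalized counts in controls, compared with 651, 761, 525 and 656 in Adipoq-F2-KO. Its means, 646 ± 118 and 648 ± 96.6 (SD, n = 4 each), differed by less than either SD, with a log2 fold change of 0.02 ± 0.16. In the 5 deeper libraries it was 0.26 (unadjusted p = 0.0918, DESeq2 adjusted p = 0.855).

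Of the transcription factors, Atoh1 (chr6:64729125-64731245) had 170, 185, 232 and 135 normalized counts in controls, compared with 167, 206, 134 and 160 in Adipoq-F2-KO. The lowest library of each genotype was nearly the same, and the log2 fold change was -0.08 ± 0.21 (DESeq2 adjusted p = 0.9998, interval of the ratio 0.713 to 1.26). Atoh1 also marks the Paneth cell lineage, and control 4, its lowest control, was the library with the least Paneth RNA (summed normalized counts of 10 Paneth markers 4727.8, against 7660.0 to 15319.9 in the others). Among Adipoq-F2-KO libraries the order differed, as replicate 2 had the lowest Paneth sum (7660.0) and the highest Atoh1 (206). The part of Paneth cells in these values was not tested.

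Spdef (chr17:27714352-27728955) had 125, 93.8, 107 and 121 normalized counts in controls, compared with 75.8, 120, 80.1 and 109 in Adipoq-F2-KO. Adipoq-F2-KO 1 and 3 lay below all controls and the other 2 within their range. Its log2 fold change of -0.21 ± 0.22 was the furthest from 0 of the 9 and did not pass the test (unadjusted p = 0.341, DESeq2 adjusted p = 0.9998). Only 40 to 207 reads supported Spdef in a library, so counting error alone reached 15.8% of its value, and the interval of the ratio ran from 0.641 to 1.17. Leaving out 1 library moved its log2 fold change to between -0.36 (without Adipoq-F2-KO 2) and -0.10 (without Adipoq-F2-KO 1).

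Retnlb (chr16:48816856-48818892) had 0 counts in all 8 libraries. A count of 0 allows up to 3 counts, that is 0.138 to 0.499 CPM (counts scaled to a library total of 1000000) in the individual libraries and 0.0277 CPM over all 108278904 counts. Retnlb was therefore not detectable at this depth in either genotype, and no comparison was made. These limits cover counting error only.

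**Figure D2:**
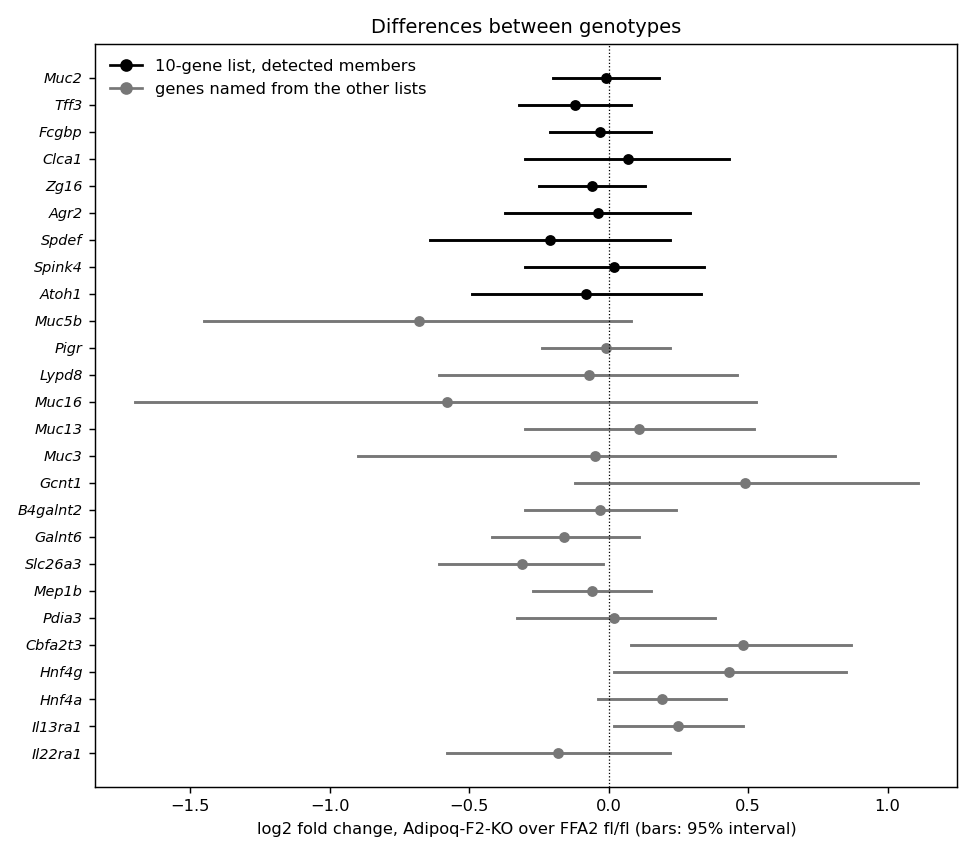
Log2 fold changes, Adipoq-F2-KO over FFA2 fl/fl, with 95% intervals for the 9 detected members (black) and for the genes named from 6 other lists (grey). All 9 black intervals include 0, and they are narrowest for Fcgbp, Muc2 and Zg16.

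Between libraries of either genotype, the coefficient of variation of normalized counts was 6.84% for Fcgbp, 7.43% for Muc2, 7.85% for Zg16 and 8.84% for Tff3. It was 15.4% for Spink4, 16.3% for Agr2 and 19.6% for Clca1. The median over these 7 abundant members was 8.84%, against 11.3% over the 3760 tested genes with a mean of at least 500 normalized counts. For Spdef (18.1%) and Atoh1 (19.4%) the counting error in the library with the fewest counts was 15.8% and 12.2%. Of the 9 members, 6 (Muc2, Clca1, Zg16, Agr2, Spink4 and Atoh1) were highest in control 3. The mean of the members' centred log2 values was 0.23 in control 3 and -0.10 to 0.04 in the other 7 libraries. Control 3 was also the library with the most smooth muscle RNA and the fewest counts, and the part of these in its goblet values was not tested. With a smooth muscle score as covariate no member was called and the median of the members stayed at -0.04. Without control 3 the median log2 fold change of the members was 0.05, and in the 5 deeper libraries alone it was 0.03.

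In level per length (RPKM, CPM divided by the kilobases of annotated exon), Zg16 stood highest of the members in every library, at 1004.6 ± 68.1 RPKM (SD over 8 libraries). Fcgbp (615 ± 43.5), Tff3 (598 ± 73.0) and Muc2 (559 ± 23.9) followed with overlapping ranges, so their order is not settled. Tff3, which has far fewer counts than Fcgbp, reached a similar level per length, since its exons span 493 bases against 10497. Clca1 followed at 216 ± 35.1, clearly apart from both neighbours in that order. Spink4 (114 ± 17.2) and Agr2 (98.2 ± 14) overlapped in range, and Spink4 was the higher in 7 of 8 libraries. The factors Atoh1 (6.88 ± 1.36) and Spdef (3.80 ± 0.749) came last in every library. Lengths are those of GENCODE M21, where Muc2 is annotated as 8 transcripts of which the longest has 2926 bases, so its level per length depends on an incomplete model.

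**Figure D3:**
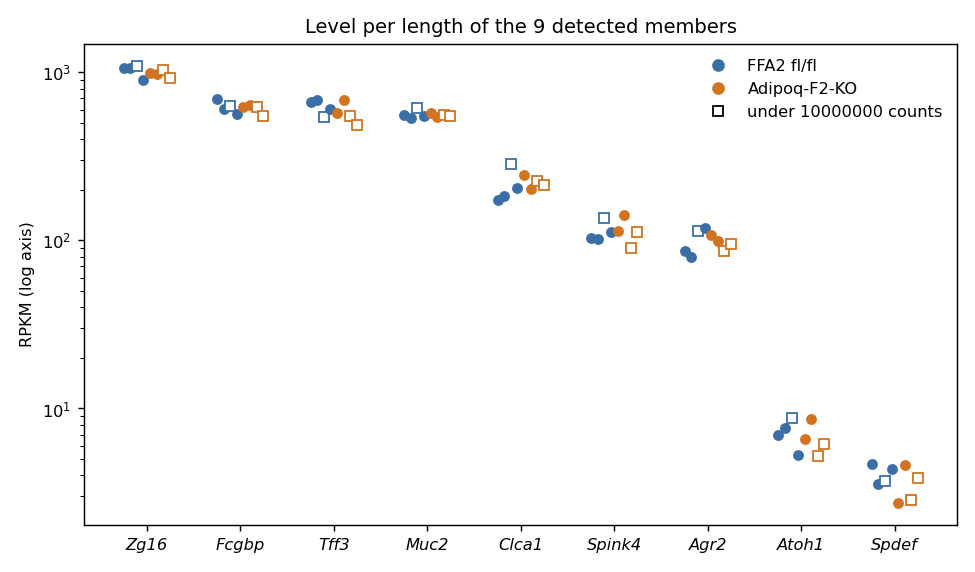
Level per length in RPKM (log axis) of the 9 detected members, each point a library (blue FFA2 fl/fl, orange Adipoq-F2-KO, open squares under 10000000 counts). Levels fall from Zg16 at about 1004.6 to Spdef at 3.80 on average, and at each gene the genotypes overlap.

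The wider goblet and mucus programme was examined with 6 further lists, of which 112 genes were tested. None of the 112 had an adjusted p below 0.05 (DESeq2), and 4 had an unadjusted p below 0.05, or 3.57% against 3.03% of all tested genes. The genotypes did not overlap for 1 of them, or 0.893% against 2.12%.

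Among other goblet granule and mucus proteins, 14 of 19 genes were tested, with 3 log2 fold changes above and 11 below 0 and a median of -0.05. Pigr, the receptor that carries IgA into the lumen, was the highest per length at 1111.0 ± 82.5 RPKM. It had 53550.2 ± 6177.4 normalized counts in controls and 53177.3 ± 5671.5 in Adipoq-F2-KO. Muc5b, a gel-forming mucin of airways and salivary glands, had the smallest p of the list. It had 31.5, 60.6, 35.5 and 34.1 normalized counts in controls, compared with 30.0, 34.1, 14 and 18.8 in Adipoq-F2-KO, and the groups overlapped (log2 fold change -0.68 ± 0.39, unadjusted p = 0.0788, DESeq2 adjusted p = 0.9998). Between 7 and 115 reads supported Muc5b in a library, so counting error alone reached 37.8% of its value. Without control 2, its highest library, the log2 fold change was -0.40 (DESeq2 unadjusted p = 0.345). It was -0.40 in the 5 deeper libraries (unadjusted p = 0.366) and -0.90 without Adipoq-F2-KO 2 (unadjusted p = 0.0456, adjusted p = 0.9998). The gastric products Muc5ac, Tff1 and Tff2 had at most 1 count in any library.

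Of the transmembrane mucins, which form the enterocyte glycocalyx, 4 were tested and none was called (median -0.10). Muc13 had 25765.5, 30260.2, 51237.8 and 32650.3 normalized counts in controls, compared with 31534.3, 34449.1, 40384.7 and 45036.0 in Adipoq-F2-KO. Muc3 had 13631.2, 7962.6, 15945.1 and 12542.7 in controls, compared with 6624.7, 5421.2, 15818.7 and 20558.1 in Adipoq-F2-KO. Muc16, the listed mucin with the smallest p, had 15.5 to 109 normalized counts in controls and 22.1 to 40.9 in Adipoq-F2-KO (unadjusted p = 0.307). Muc13 and Muc3 were both highest in the same 3 libraries, control 3 and Adipoq-F2-KO 3 and 4, which were those with the most Fabp6 and the most Slc10a2, the ileal bile acid transporter (268 to 415 normalized counts against 30.0 to 78.2).

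The log2 fold change of Muc13 was 0.11 ± 0.21 over all 8 libraries and ran from -0.01 (without control 1) to 0.36 (without control 3, DESeq2 adjusted p = 0.406) with 1 library left out. Over all 8 libraries the log2 fold change of Muc3 was -0.05 ± 0.44 (DESeq2 adjusted p = 0.9998). In the 5 deeper libraries, 3 controls and 2 Adipoq-F2-KO, it was -0.92 (DESeq2 adjusted p = 0.0235), where the 2 Adipoq-F2-KO values lay below all 3 controls. Of the 15 alternative fits this was the only one that called Muc3 (adjusted p from 0.0235 to 0.99999), and why it differs was not tested. Lypd8, which keeps flagellated bacteria from the epithelium, moved the other way across libraries, with 3824.0 to 4292.5 normalized counts in those 3 libraries and 5151.8 to 9000.4 in the other 5. Depth and the levels of Fabp6 and Slc10a2 go together in these 3 libraries and cannot be told apart. Of 6 distal small intestine markers 4 were tested, and they summed to 1108.4 to 1767.0 normalized counts in controls and 1404.9 to 1827.4 in Adipoq-F2-KO. No overlap between the 3 and the 5 libraries was seen for 17 of the 112 genes, near the 13.9% of all tested genes.

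**Figure D4:**
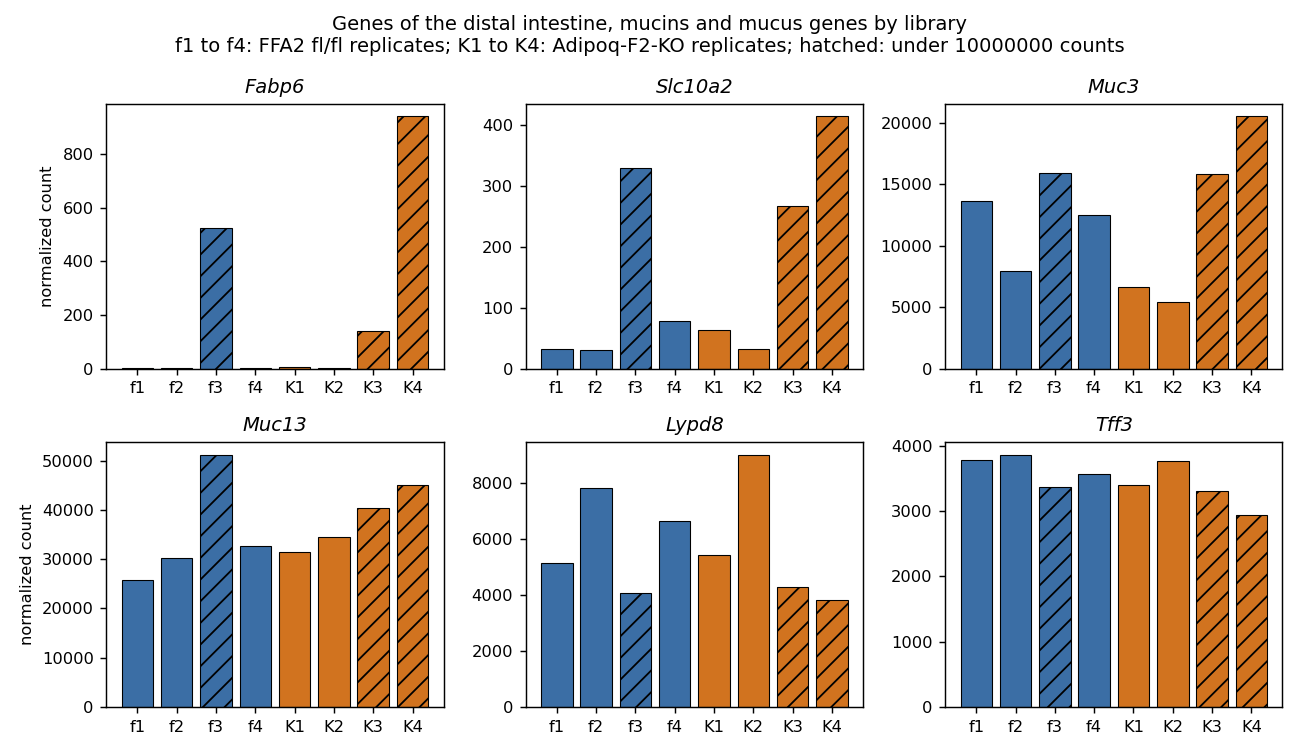
Normalized counts (linear axes from 0) in each library of the ileal genes Fabp6 and Slc10a2, the transmembrane mucins Muc3 and Muc13, and Lypd8 and Tff3. In the 3 hatched libraries the first 4 genes are highest and Lypd8 and Tff3 lowest, while colour marks genotype (blue FFA2 fl/fl, orange Adipoq-F2-KO). The genes shown were picked, and 13.9% of all tested genes separated these 3 libraries from the other 5.

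Mucin glycosylation gave no call either. In the O-glycosylation list 27 of 31 genes were tested, 14 above and 13 below 0. B4galnt2, which adds the terminal sugar of the Sda antigen, had 3529.1 ± 483 normalized counts in controls and 3446.9 ± 434 in Adipoq-F2-KO. Galnt6, which starts O-glycan chains, had 3064.4 ± 572 and 2754.7 ± 73.9, a log2 fold change of -0.16 ± 0.14 that ran from -0.24 to -0.03 with 1 library left out (the latter without control 4). Gcnt1, a core 2 branching enzyme, had the smallest p (log2 fold change 0.49 ± 0.31, unadjusted p = 0.115), and its log2 fold change ran from 0.35 to 0.63 with 1 library left out and was 0.79 in the 5 deeper libraries (DESeq2 adjusted p = 0.613).

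For endoplasmic reticulum folding, stress and granule release, 30 of 31 genes were tested, 13 above and 17 below 0 (median -0.05). Pdia3, a disulfide isomerase, had 4410.7 ± 1095.0 normalized counts in controls and 4484.2 ± 484 in Adipoq-F2-KO, and Mep1b, the meprin subunit that detaches mucus in the small intestine, had 14911.4 ± 1756.4 and 14324.7 ± 839. Slc26a3, a chloride and bicarbonate exchanger of absorptive cells, had 3350.7, 2891.0, 2191.5 and 3465.5 normalized counts in controls, compared with 2590.8, 2454.5, 2280.4 and 2261.7 in Adipoq-F2-KO. Control 3 was the lowest library and the other 3 controls lay above all Adipoq-F2-KO libraries. Its log2 fold change was -0.31 ± 0.15 (unadjusted p = 0.0372, DESeq2 adjusted p = 0.9998). Without control 3 it was -0.43 with an adjusted p of 0.0165, so its call depends on that library. Over the 15 alternatives its adjusted p ran from 0.0165 to 0.99999.

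In the list of lineage transcription and Notch genes, 27 of 28 genes were tested, 18 above and 9 below 0 (median 0.11). Cbfa2t3, a transcriptional co-repressor, had 67.9, 81.2, 73.2 and 65.8 normalized counts in controls, compared with 87.6, 89.9, 116 and 117 in Adipoq-F2-KO. It was the gene of the 112 without overlap, but its log2 fold change of 0.48 ± 0.20 did not pass the test (unadjusted p = 0.0176, DESeq2 adjusted p = 0.9998), and it was 0.30 in the 5 deeper libraries (unadjusted p = 0.237). Hnf4g, a nuclear receptor of enterocytes rather than of goblet cells, had 10510.7, 7163.0, 9284.8 and 6022.5 in controls, compared with 15123.4, 10745.0, 8783.3 and 9785.5 in Adipoq-F2-KO, with overlap (log2 fold change 0.43 ± 0.21, unadjusted p = 0.0422). It was 0.25 without Adipoq-F2-KO 1 (unadjusted p = 0.211) and 0.71 in the 5 deeper libraries, and edgeR gave an unadjusted p of 0.0706. Its relative Hnf4a had 10478.6 ± 1398.2 and 11933.3 ± 938 normalized counts, with a log2 fold change of 0.19 ± 0.12 that ran from 0.14 to 0.28 with 1 library left out (the latter without control 3, DESeq2 adjusted p = 0.273).

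Several cytokines of the type 2 and IL-22 list were hardly detected, while other cytokines of that list passed the filter on low counts. Il5 and Il22 had 0 counts in every library, and Il4, Il13 and Il25 had at most 3, 7 and 2. Of the type 2 and IL-22 list, 10 of 18 genes were tested, 6 above and 4 below 0. The receptor chain Il13ra1, which senses IL-4 and IL-13, had 2638.9, 2712.9, 3153.5 and 2800.0 normalized counts in controls, compared with 3643.1, 2969.7, 3015.2 and 3765.7 in Adipoq-F2-KO. The 2 highest values were Adipoq-F2-KO libraries and the groups overlapped (log2 fold change 0.25 ± 0.12, unadjusted p = 0.0356, DESeq2 adjusted p = 0.9998). With 1 library left out the log2 fold change of Il13ra1 ran from 0.18 (without Adipoq-F2-KO 4, DESeq2 unadjusted p = 0.14) to 0.30 (without control 3, unadjusted p = 0.0111). It was 0.17 with size factors from general epithelial markers (unadjusted p = 0.103), and edgeR gave an unadjusted p of 0.0509. Il22ra1 had 1835.1 ± 504 in controls and 1619.1 ± 256 in Adipoq-F2-KO, a log2 fold change of -0.18 ± 0.20 that ran from -0.31 to -0.05 with 1 library left out (without control 2 and without control 3). The 9 macrophage markers had summed normalized counts of 212 to 579 in controls and 409 to 758 in Adipoq-F2-KO. All 9 log2 fold changes were above 0 (median 0.61), and 1 of these markers had an unadjusted p below 0.05. Of 8 tested B and plasma cell markers 7 were above 0 (median 0.91), with summed normalized counts of 2690.1 to 16535.6 in controls and 5642.6 to 11408.1 in Adipoq-F2-KO. Of 16 proliferation markers 14 were above 0 (median 0.21) and 3 had an unadjusted p below 0.05, against 3.03% of all tested genes. In the other direction, all 11 smooth muscle markers (median -0.92) and 10 of 12 enteroendocrine markers (median -0.15) were below 0. Over all tested genes 51.5% were below 0. The smooth muscle markers were all highest in control 3. Their summed normalized counts were 3785.7 to 32237.4 in controls, a range that held the 4175.9 to 13216.6 of Adipoq-F2-KO. None of these markers was called, and their part in the values above was not tested.

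Finally, the tested genes with at least 50 mean normalized counts other than the members were ranked by the likeness of their pattern over the 8 libraries to the mean of the members (Pearson's r across 8 libraries, a description over 10216 genes searched). Among the 10 highest were Braf (0.938), Rab37, Rap2c, Heph, Ppp1r7, Kif1c, Cyfip1, Polr3c and 2700049A03Rik (0.902). Control 3 carried much of this likeness. Without it, r was 0.631 for Braf and 0.416 for Polr3c, and it remained at 0.892 for 2700049A03Rik, 0.857 for Cyfip1 and 0.842 for Rap2c.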

How the data were processed

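Mucosal RNA was sequenced as stranded polyadenylated libraries, 75 bp from a single end. The authors trimmed reads with Trimmomatic, aligned them with STAR and counted them per gene with featureCounts, and the deposited values are these raw counts per library. The submitters' processing notes name GRCm38 and mm10. Versions, annotation release and strand setting are not given in the sources used here. Symbols, coordinates and exon lengths came from GENCODE M21 (GRCm38), in which 52073 of 56980 identifiers had a symbol. Of 297 list entries 292 matched.

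Groups and replicate numbers came from the sample titles. Genes that reached 10 counts in 4 or more libraries entered DESeq2 1.42.0 in R 4.3.3, genotype as the only term, two-sided Wald tests and Benjamini-Hochberg adjustment over 15986 genes. Intervals are 95% normal intervals. DESeq2 follows the authors' choice of tool, and edgeR 4.0.16 was an alternative beside other scalings, no filter, 1 library left out, a replicate block, 5 deeper libraries and a smooth muscle covariate. Normalized counts are counts divided by the size factor. P-values weigh the genotype difference against the spread between these libraries, which holds differences between mice and between scrapings. Fits were tested on simulated data.

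Among the 12 pairs of libraries within a genotype no duplicate was found. The members and lists were chosen with earlier results of these data known. From each of the 6 other lists, up to 3 genes with an unadjusted p below 0.05 (otherwise the smallest p) and the 2 highest per length were named, besides the 10 genes most like the members, of which 1 is not reported here. Fabp6, Slc10a2, Myh11, Gm44939 and the undetected genes were named after their values were seen.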

Additional observations from a re-analysis of the deposited data

Results flagged for a closer look

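Values were compared within groups of 4 libraries by Dixon's 95% limit on the gap between the highest or lowest library and the rest. Among the 54 groups of genes named by the rule, 1 value passed the limit, where chance flags about 1 in 20. Muc5b had 60.6 normalized counts in control 2, against 31.5 to 35.5 in the other controls. None of the 10 goblet cell and mucus genes held such a value. A further 4 values passed the limit in genes that were named because they stood apart in these libraries, so the chance rate does not apply to them. Slc10a2 had 330 in control 3, against 30.0 to 78.2. Fabp6 had 523 in control 3, against 0.774 to 1.21, and 942 in Adipoq-F2-KO 4, against 1.24 to 140. Myh11 had 9682.1 in control 3, against 64.8 to 1534.9.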

How the results depend on the processing

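In all 15 alternative fits the number of goblet cell and mucus genes called at an adjusted p below 0.05 stayed at 0, and the median log2 fold change of the members ran from -0.07 to 0.05 with 1 library left out and was -0.10 with size factors from general epithelial markers. The SD of the members' mean centred log2 value among controls was 0.14, and 0.05 without control 3. The members' directions are not firm: of 135 values under alternatives, 17 changed sign. In the 5 deeper libraries the log2 fold change was 0.03 for Muc2, 0.02 for Fcgbp, 0.11 for Agr2, 0.19 for Atoh1, 0.06 for Pigr, 0.14 for Lypd8, 0.19 for Muc16 and 0.05 for Il22ra1. With size factors from general epithelial markers it was -0.04 for Spink4 and -0.03 for Pdia3. With 1 library left out it ran from -0.06 to 0.06 for Muc2, -0.07 to 0.01 for Fcgbp, -0.03 to 0.27 for Clca1, -0.15 to 0.06 for Agr2, -0.07 to 0.14 for Spink4, -0.20 to 0.05 for Atoh1, -0.06 to 0.07 for Pigr, -0.39 to 0.09 for Lypd8, -0.87 to 0.16 for Muc16, -0.01 to 0.36 for Muc13, -0.43 to 0.19 for Muc3, -0.11 to 0.04 for B4galnt2, -0.11 to 0.02 for Mep1b and -0.08 to 0.14 for Pdia3. The cause was not tested.

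Counts over all tested genes moved more. The 6 genes called became 2 with edgeR, 2 with epithelial size factors, 3 without a filter on low counts and 78 in the 5 deeper libraries. With 1 library left out they ran from 2 to 103 (103 without control 3), and genes with an unadjusted p below 0.05 ran from 282 to 1302, against 485 in all 8 libraries and 864 in the 5 deeper ones. The number of members under that unadjusted threshold ran from 0 to 1, the exception being Clca1 without control 3. With the replicate number as a block 11 genes and no member were called. The mice share only the number in their sample titles, and other labels of the same libraries carry different numbers. The deviations of same-numbered mice from their group means correlated at 0.542, 0.294, 0.0113 and -0.423, and not every mouse correlated best with its own number. Depth limits Spdef and Atoh1 most, and Retnlb was not tested.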
